A study of Homo sapiens with 13 samples.

Results

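The genes described here are ZEB1, ZEB2, SNAI1, SNAI2, TWIST1, TWIST2 and PRRX1, which encode transcription factors of the mesenchymal state, together with TEX41, a long noncoding RNA gene that lies beside ZEB2. Their members are the ATAC-seq peaks that overlapped a gene body extended by 50 kb on each side (GENCODE on hg19), which gave 83 of the 129347 peaks in the table. TWIST2 held 16 of these peaks, SNAI1 15, ZEB2 14, TEX41 13, TWIST1 11, SNAI2 7, PRRX1 6 and ZEB1 only 1, and no peak lay in the windows of more than 1 gene. The genes were chosen by a result from the same libraries: a peak in an intron of TEX41 was known to have one of the largest decreases between the phases, so the values of TEX41 peaks are given as a description with no p-value. At the edge of the rule, the outermost member of the SNAI1 window, 47.39 kb before the gene, had a mean scaled count of 9.50 in G1 and 8.83 in M-phase, and the first peak outside it, 52.79 kb before the gene, had 76.2 in G1 and 152 in M-phase. A single peak lay between the ZEB2 and TEX41 windows, 75.09 kb from ZEB2, with 49.2 in G1 and 20.7 in M-phase.

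All libraries came from T98G, an established human glioblastoma cell line, and were made with ATAC-seq, in which a transposase inserts sequencing adapters into accessible DNA. The 3 G1 libraries came from cells kept without serum for 72 h. The 3 M-phase libraries came from cells starved for 48 h, moved to 20% serum with nocodazole (0.2 μg/mL), a drug that stops spindle formation, for 36 h and collected by shake-off. The groups therefore differ in serum, drug and cell cycle phase at once, and the M-phase replicates carried runs from a second sequencer that the G1 replicates lacked, so these cannot be told apart. The sources used here do not say whether replicates were separate cultures, and p-values measure only the spread between these libraries. The values are reads per peak that the authors scaled to the smallest library. Their sum over all peaks ranged from 4191845 to 5092426 among the G1 libraries and from 5475345 to 6000423 among the M-phase libraries, so each M-phase total was above every G1 total. T98G had a peak at the transcription start site (TSS) of the mesenchymal markers VIM and CD44 but none at the astroglial markers GFAP, S100B and AQP4, none at NES and only a weak one at SOX2 (mean 9.67). No TSS peak was found for the blood markers PTPRC and CD3E. The endothelial marker CDH5, the neuronal marker RBFOX3 and the epithelial markers CDH1 and ESRP1 had none either, whereas the epithelial marker EPCAM and the neuronal marker SYT1 had one.

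ZEB and SNAI proteins are zinc finger repressors that bind the E-box CACCTG in the promoters of epithelial genes such as CDH1. TWIST proteins are basic helix-loop-helix factors that pair with E proteins, and PRRX1 is a homeobox factor of mesenchyme. During epithelial-mesenchymal transition, often driven by TGF-beta, these factors silence epithelial genes and allow a migratory state, and in glioblastoma they are associated with the mesenchymal form of the tumour. A peak in these data reports how open the DNA around such a gene is, not how much of its RNA or protein is made, and a bulk count cannot tell fewer cells with an open site from less opening per cell.

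The sequences below are the central 200 bases of the distal peaks with the largest changes in either direction in their windows, read from hg19, plus strand. Motifs were searched on both strands, and capitals mark every match. The AP-1 motif was TGAGTCA, the RUNX motif was spelled TGTGGTT and for TEAD the letters were GGAATG. A FOX match was TGTTTAC, or the variant TATTTAC, or else the variant TGTTTGC. The E-box of ZEB and SNAI was CACCTG, while for TWIST it was CATATG or alternatively CATCTG. None of these words contains another. The first is the TEX41 peak that led to the choice (window chr2:145915706-145915905), the second the strongest decrease at ZEB2 (chr2:145115541-145115740), the third that at TWIST2 (chr2:239779247-239779446) and the fourth the strongest increase at SNAI1 (chr20:48567591-48567790).
TEX41: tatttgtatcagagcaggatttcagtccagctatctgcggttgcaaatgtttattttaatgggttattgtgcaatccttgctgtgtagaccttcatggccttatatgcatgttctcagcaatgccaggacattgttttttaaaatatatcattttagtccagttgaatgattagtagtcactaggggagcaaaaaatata
ZEB2: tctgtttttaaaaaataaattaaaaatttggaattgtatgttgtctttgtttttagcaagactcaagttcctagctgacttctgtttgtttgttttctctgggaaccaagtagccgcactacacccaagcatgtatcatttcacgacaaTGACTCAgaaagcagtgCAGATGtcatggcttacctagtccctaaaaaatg
TWIST2: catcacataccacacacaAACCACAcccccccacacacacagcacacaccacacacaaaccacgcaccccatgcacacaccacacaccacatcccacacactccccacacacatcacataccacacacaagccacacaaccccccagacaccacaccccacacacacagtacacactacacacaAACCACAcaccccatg
SNAI1: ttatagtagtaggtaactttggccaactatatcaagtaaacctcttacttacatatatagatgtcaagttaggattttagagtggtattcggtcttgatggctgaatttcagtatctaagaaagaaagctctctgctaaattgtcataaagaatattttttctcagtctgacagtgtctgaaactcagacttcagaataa

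The TEX41 window, with 36.0% GC, held none of these letters, and neither did the SNAI1 window. The ZEB2 window held 1 AP-1 site and 1 TWIST E-box. Both RUNX matches at TWIST2 lay within a long run of CA repeats. Among all 93821 distal peaks, the AP-1 letters were found in 9.91% of central windows, the RUNX letters in 5.32% and the CACCTG E-box in 19.6%, against 16.1%, 9.68% and 22.6% of the 62 distal members. The FOX letters were found in 8.47% of all and 6.45% of member windows, those of TEAD in 13.4% and 14.5%, and the TWIST E-box in 19.5% and 21%.

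For the promoters, the 250 bases before the annotated start are shown for TWIST1 (chr7:19157260-19157509, minus strand), in the direction of the gene, because the sign of its peak's change turned with the normalization.
TWIST1 promoter: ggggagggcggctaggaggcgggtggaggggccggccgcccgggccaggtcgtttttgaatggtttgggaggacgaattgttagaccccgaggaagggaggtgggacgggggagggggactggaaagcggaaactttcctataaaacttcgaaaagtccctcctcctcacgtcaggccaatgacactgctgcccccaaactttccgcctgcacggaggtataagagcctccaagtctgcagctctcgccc

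The TWIST1 promoter has 61.2% GC and 15 CpG dinucleotides, beside medians of 63.6% and 18 over 18922 promoters of protein-coding genes. No motif of the set was found in this window, and the CACCTG E-box was found in 17.2% of promoters.

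Changes between the phases were tested with limma on log2 of the scaled count plus 8, over 73121 peaks left after low peaks were removed, with Benjamini-Hochberg adjustment over all of them. A change is the M-phase mean minus the G1 mean on this scale, which understates the change of low peaks. Of the 83 members, 49 passed the filter, and the others were not tested. The filter scaled with the total of each library, and every M-phase total was above every G1 total. A low peak high in G1 alone therefore passed more easily than one high in M-phase alone. Outside TEX41, 42 of 70 members were tested, of which 12 were higher and 7 lower in M-phase, or 28.6% and 16.7%. Over all tested peaks, 14.3% were higher and 13.1% lower. Peaks that overlap a TSS made up 11 of the 83 members and distal peaks made up 62, where distal means over 2 kb away from all annotated starts and not in a CpG island.

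**Figure D1:**
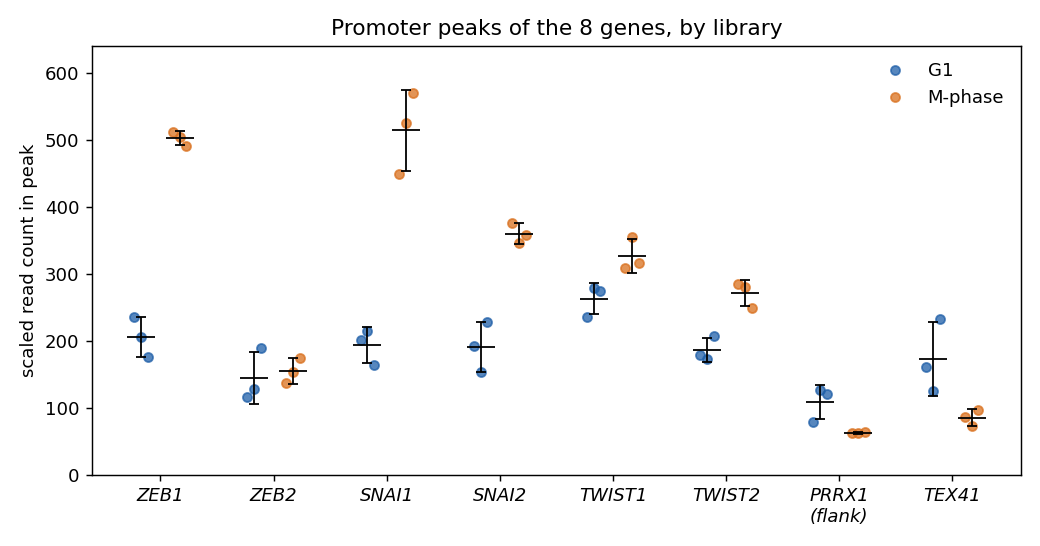
Scaled read counts (vertical axis, linear from 0) in the promoter peaks of the 8 genes in each of the 3 G1 (blue) and 3 M-phase (orange) libraries, where black bars give the mean and SD. The M-phase libraries of ZEB1, SNAI1 and SNAI2 lie above all G1 libraries, the groups overlap at ZEB2, TWIST1 and TWIST2 separate by a smaller step that disappears or turns under a trended loess normalization, and the PRRX1 flank and the TEX41 internal promoter are lower in M-phase.

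The promoters of ZEB1 and both Snail genes were more accessible in M-phase, and the promoters of ZEB2 and TWIST1 were not called. SNAI1 encodes Snail, a fast-turnover repressor that acts early in the transition. Its TSS peak (chr20:48599113-48600774) held 200.8, 214.8 and 163 scaled reads in the G1 libraries and 449.4, 524.5 and 569.2 in the M-phase libraries. All M-phase libraries were above all G1 libraries, with a 2.67-fold mean difference and a log2 change of 1.38 (SE 0.17, limma adjusted p = 4.2e-10). ZEB1, whose product represses CDH1 and the microRNA-200 genes, had 235.6, 204.7 and 176 in G1 and 511.6, 504.7 and 490.8 in M-phase at chr10:31607172-31610054. This peak also covers the start of the antisense gene ZEB1-AS1, so the change cannot be given to either promoter alone. The mean rose 2.44-fold, or by 1.27 on the log2 scale (SE 0.17, limma adjusted p = 4.73e-09). SNAI2 encodes Slug, the paralogue of Snail. Its promoter (chr8:49832725-49834682) rose from 191.9, 153.1 and 228 to 376.1, 346.1 and 357 scaled reads, a log2 change of 0.90 (SE 0.18, limma adjusted p = 3.6e-05). That call did not hold under a trended loess normalization, where the log2 change was 0.30 (limma adjusted p = 0.0918). The SNAI1 and ZEB1 calls held there, with smaller log2 changes of 0.70 and 0.58.

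For ZEB2, the paralogue of ZEB1, no change was called. Its TSS peak (chr2:145274105-145275321), centred 3.91 kb inside the longest gene model, had 116.3, 127.3 and 189 scaled reads in G1 and 137.2, 152.5 and 174.7 in M-phase. The groups overlapped, and the log2 change of 0.12 (SE 0.20) did not pass the test (limma adjusted p = 0.714) and turned to -0.24 with the trended loess normalization, to -0.21 with equal totals and to -0.01 without G1 replicate 1. Within each library, the log2 ratio of the ZEB1 to the ZEB2 promoter peak was 0.97, 0.65 and -0.10 in G1 and 1.84, 1.68 and 1.45 in M-phase. The ratio was higher in every M-phase library, by 1.15 on average, with p = 0.1 in a two-sided exact permutation test, the smallest that 3 against 3 libraries allow (adjusted p = 0.15 over 3 paralogue pairs, a comparison chosen after the values were seen). The log2 ratio of SNAI1 to SNAI2 differed by 0.48 with overlapping groups (exact permutation p = 0.2, adjusted p = 0.2). That of TWIST1 to TWIST2 was 0.38, 0.67 and 0.39 in G1 and 0.11, 0.34 and 0.34 in M-phase, lower in every M-phase library by 0.22 on average (exact permutation p = 0.1, adjusted p = 0.15).

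TWIST1 (chr7:19155793-19157472) had 235.6, 278.1 and 274 scaled reads in G1 and 308.1, 355.2 and 316.6 in M-phase, so the groups did not overlap, but its log2 change of 0.31 (SE 0.17) did not pass the test (limma adjusted p = 0.193). A trended loess normalization turned this value to -0.34 (limma adjusted p = 0.0406), and with equal totals it was -0.037. TWIST2 (chr2:239756154-239758475) had 179, 171.9 and 207 in G1 and 284.7, 279.8 and 249.3 in M-phase. Its log2 change of 0.53 (SE 0.18) passed the test (limma adjusted p = 0.0208) but was -0.01 with the trended loess normalization and 0.19 with equal totals, and the call was also lost in the fits without G1 replicate 1, G1 replicate 2, M-phase replicate 1 or M-phase replicate 2.

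PRRX1 had no peak over an annotated TSS. The peak that begins just inside the gene (chr1:170633363-170634546), in a CpG island over an exon, had 78.5, 125.8 and 120 scaled reads in G1 and 61.4, 61.4 and 63.5 in M-phase. Every M-phase library was below every G1 library, and the log2 change of -0.70 (SE 0.22) passed the test (limma adjusted p = 0.0109). The call was lost without G1 replicate 2 or M-phase replicate 2.

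Of the 11 TSS members, 6 were called higher and 1, in TEX41, lower. Over all 15500 TSS peaks tested, 43.2% were higher and 5.94% lower, with a median log2 change of 0.37 over all TSS peaks beside 0.53 over the member TSS peaks. A rise at a TSS peak was thus common in these libraries on the deposited scale. The median over all TSS peaks was 0.058 with equal totals and 0.048 with the trended loess normalization. The other TSS members belong to neighbours: RNF114, a ubiquitin ligase gene beside SNAI1, rose by 1.25 on the log2 scale (limma adjusted p = 6.57e-08), LINC02993 beside ZEB2 rose by 0.79 (limma adjusted p = 0.0165), GTDC1 beside ZEB2 had a log2 change of 0.13 (limma adjusted p = 0.627), and ENSG00000229533 beside TWIST1 had 0.24 (limma adjusted p = 0.553). The LINC02993 call was lost with equal totals (0.50) and without G1 replicate 2, M-phase replicate 1 or M-phase replicate 2.

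Compared per kb of peak, promoter levels ran from 71.3 to 162 scaled reads in G1 and from 52.5 to 309 in M-phase. In G1 the order was TEX41 with 162 ± 51.9 scaled reads per kb (SD, n = 3), TWIST1 with 156 ± 14.0, ZEB2 with 118 ± 32.2, SNAI1 with 116 ± 16.1, SNAI2 with 97.5 ± 19.1, the PRRX1 flank with 91.3 ± 21.8, TWIST2 with 80.1 ± 7.99 and ZEB1 with 71.3 ± 10.3. Neighbours in that order differed by less than the larger of their SDs, except TWIST1 and ZEB2. In M-phase SNAI1 stood first with 309 ± 36.4, followed by TWIST1 with 194 ± 14.9, SNAI2 with 184 ± 7.76, ZEB1 with 174 ± 3.67, ZEB2 with 127 ± 15.5, TWIST2 with 117 ± 8.26, TEX41 with 79.6 ± 11.6 and the PRRX1 flank with 52.5 ± 1.02. There, TWIST1 and SNAI2, and ZEB2 and TWIST2, were within the larger SD of each other.

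**Figure D2:**
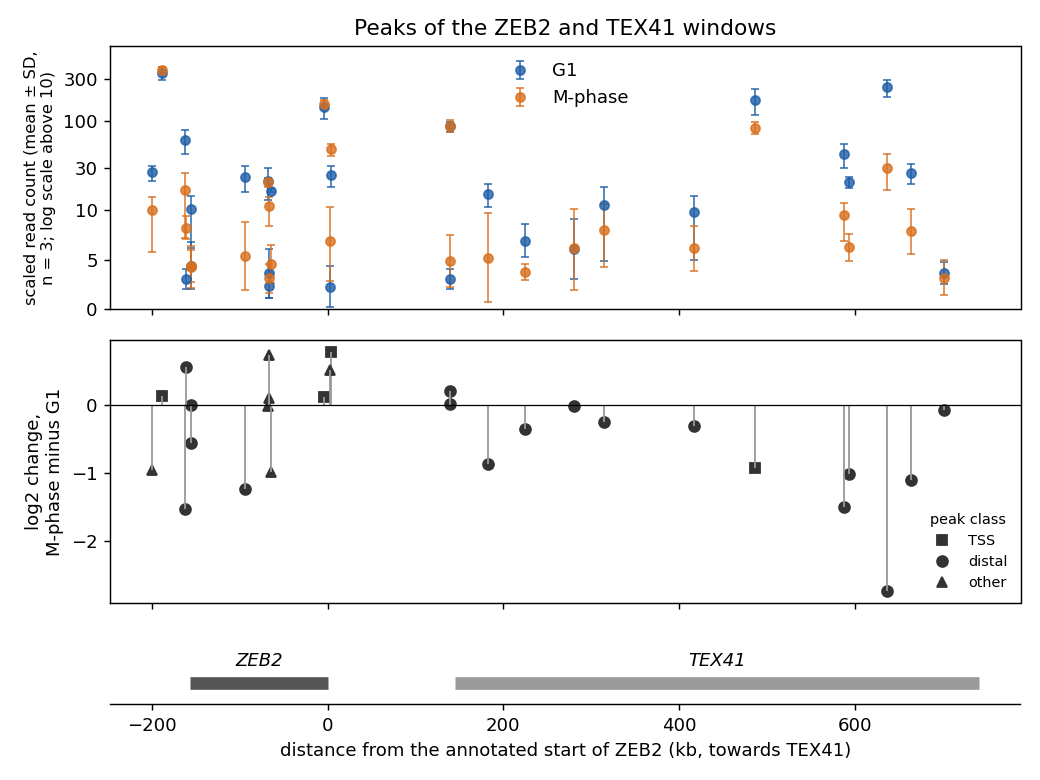
Peaks of the ZEB2 and TEX41 windows by distance from the annotated start of ZEB2 (kb, horizontal axis), with the mean and SD of the scaled counts of 3 libraries per phase above (log scale over 10), the log2 change by peak class in the middle and both gene bodies below. The ZEB2 promoter has a log2 change of 0.12 (-0.24 with trended loess and -0.21 with equal totals), ZEB2 peaks lie both above and below 0, up to 0.79 at LINC02993, and the lowest peak is the TEX41 intronic peak that led to the choice, with -2.74.

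TEX41 begins 145.3 kb from ZEB2, is transcribed away from it and spans 596.7 kb. The peak that led to the choice (chr2:145915290-145916323), in an intron of TEX41, had 247.5, 185.9 and 289 scaled reads in G1 and 29.7, 43.3 and 17.3 in M-phase, an 8.0-fold difference of means and a log2 change of -2.74 (SE 0.23). It ranked 2 in size of decrease among the 46514 distal peaks tested, which is the value that chose it. The peak at chr2:145865930-145866429, also intronic, had 37.8, 32.8 and 57 in G1 and 12.4, 9.1 and 7.2 in M-phase, a log2 change of -1.51. Intronic peaks near it had log2 changes of -1.11 and -1.01. TEX41 has an internal promoter (chr2:145764643-145765709), where the counts were 161.1, 124.2 and 233 in G1 and 86.1, 72.1 and 96.7 in M-phase. Its log2 change was -0.92, the only TSS member called lower. Of 7 TEX41 peaks past the filter, 6 were lower, beside 13.1% of all peaks, and nothing is read from this count because the gene was selected on such a decrease. The exception, just before the gene (chr2:145417093-145417808), had 93.5, 74.2 and 95 in G1 and 95.2, 98.1 and 74.6 in M-phase.

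ZEB2 peaks were tested, since the choice rested on the TEX41 peak. However, ZEB2 lies beside TEX41 and was chosen with that result known, so its p-values may not be free of the choice. Of the 5 distal ZEB2 peaks, 3 had a log2 change below 0 and 2 above it, and the 2 that were tested fell. The higher of them (chr2:145115375-145115907), beyond the 3′ end of ZEB2, had 41.8, 63.3 and 78 scaled reads in G1 and 23.1, 21.4 and 5.8 in M-phase. The groups did not overlap, and the log2 change was -1.53 (SE 0.28, limma adjusted p = 7.38e-06). An exonic peak inside ZEB2 (chr2:145184678-145184945) went from 27.8, 14.8 and 28 to 7.4, 7.4 and 1.4, a log2 change of -1.24 (SE 0.29, limma adjusted p = 0.000482). Both kept their call in all 12 alternative fits. A pair of further peaks, close to other start sites, fell by 0.99 (limma adjusted p = 0.00416) and 0.96 (limma adjusted p = 0.00753) on the log2 scale, and each lost its call in 1 fit that left out an M-phase replicate. The peak that fell by 0.99 had 16.9, 17.2 and 16 scaled reads in G1 and 4.9, 2.5 and 6.3 in M-phase. It too passed the filter through G1 alone. Summed over its 5 distal peaks, ZEB2 had 86.6, 91.3 and 129 scaled reads in G1 and 47, 41.6 and 28.8 in M-phase. The sums over the 12 distal TEX41 peaks were 483.2, 392.1 and 549 in G1 and 185.1, 214.3 and 142.7 in M-phase. Over all distal peaks tested, 15.9% were lower and 5.88% higher in M-phase.

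**Figure D3:**
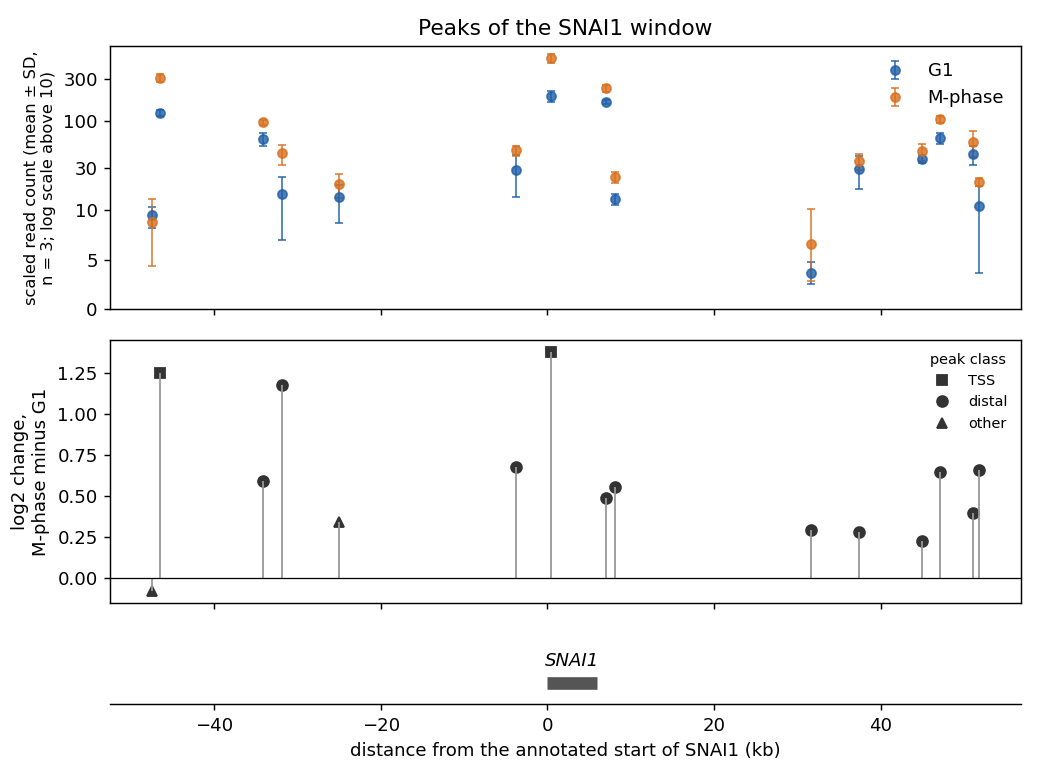
Peaks of the SNAI1 window by distance from the annotated start of SNAI1 (kb, horizontal axis), with the mean and SD of scaled counts of 3 libraries per phase above (log scale over 10), the log2 change by peak class in the middle and the gene body below. All 11 distal peaks lie above 0, of which 10 do so with equal totals, whereas 45.9% of all distal peaks lie below 0. The SNAI1 and RNF114 promoters rose the most on this scale. With trended loess their log2 changes were 0.70 and 0.77, below the 1.30 of the strongest distal peak.

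At SNAI1 the distal peaks pointed the other way. All 11 distal peaks had a log2 change above 0, from 0.22 to 1.18, and with libraries set to equal totals 10 of 11 did. Over all distal peaks, 45.9% had a change below 0. The test called 5 of the 10 that were tested higher and none lower, beside 5.88% higher and 15.9% lower over all distal peaks tested. The SNAI1 distal peaks had a median GC of 57.2% and a median mean count of 37.6, against 48.6% and 9.10 over all distal peaks. Whether this bears on the changes was not tested. The strongest rise (chr20:48567416-48567967), within RNF114, went from 11.9, 9.4 and 25 scaled reads in G1 to 35.4, 39.6 and 56.3 in M-phase, a log2 change of 1.18 (SE 0.28, limma adjusted p = 0.000596). It kept its call in all 12 alternative fits, which none of the other 4 did. The highest distal peak (chr20:48605880-48607095), just past the 3′ end of SNAI1, had 174, 159.4 and 160 in G1 and 211.7, 239 and 250.2 in M-phase. The groups did not overlap, and the log2 change was 0.48 (SE 0.19, limma adjusted p = 0.0406), but it was 0.00 after the trended loess normalization. Summed over the 11 distal peaks, the counts were 528, 442.9 and 448 in G1, and the M-phase libraries had 660.7, 768.5 and 729.1. The smallest possible p was reached (p = 0.1 by exact permutation of the libraries, two-sided, adjusted p = 0.15 over 12 sums). The SNAI1 window was dense in peaks, with 142 per Mb beside 104 per Mb on chromosome 20.

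Single distal peaks stood out at the remaining genes. The TWIST2 intron peak whose repeat is shown above (chr2:239778781-239779913) fell from 56.7, 86.7 and 54 scaled reads in G1 to 20.6, 21.4 and 37.1 in M-phase, a log2 change of -1.11 (SE 0.26, limma adjusted p = 0.000399), and kept its call in all 12 alternative fits. The highest TWIST2 distal peak (chr2:239772753-239773631), also intronic, had 151.1, 88.3 and 124 in G1 and 154.1, 166.5 and 172.7 in M-phase, a log2 change of 0.45 that did not pass the test (limma adjusted p = 0.0907). The log2 changes of these intronic peaks thus had opposite signs.

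TWIST1 is followed by HDAC9, and a peak inside that gene (chr7:19017161-19018382) rose from 58.7, 58.6 and 86 scaled reads to 102.6, 110 and 104.9, a log2 change of 0.61 (SE 0.22, limma adjusted p = 0.0285). It lost its call in 7 of 12 alternative fits, among them those with equal totals (log2 change 0.28) and with the trended loess normalization (0.48), and 5 that left out a library. A peak in a long TWIST1 gene model (chr7:19118219-19119026) had 34.8, 44.5 and 53 in G1 and 12.8, 29.7 and 45.7 in M-phase, with overlapping groups and a log2 change of -0.57 (limma adjusted p = 0.117). At PRRX1, an intronic peak (chr1:170662463-170662626) fell from 8.9, 14.8 and 21 to 3.3, 2.1 and 3.4, a log2 change of -1.03 (SE 0.28, limma adjusted p = 0.00228). The highest distal PRRX1 peak (chr1:170677196-170678099) had 68.6, 40.6 and 67 in G1 and 44.9, 46.6 and 89 in M-phase, and its log2 change was 0.00. None of the 3 tested distal SNAI2 peaks was called, and the named one (chr8:49846794-49847156) had a log2 change of -0.19 (limma adjusted p = 0.685). ZEB1 had no distal peak at all in a window of 311.3 kb, 3.21 peaks per Mb, on a chromosome with 19.8 per Mb beside 44.4 per Mb over all autosomes.

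**Figure D4:**
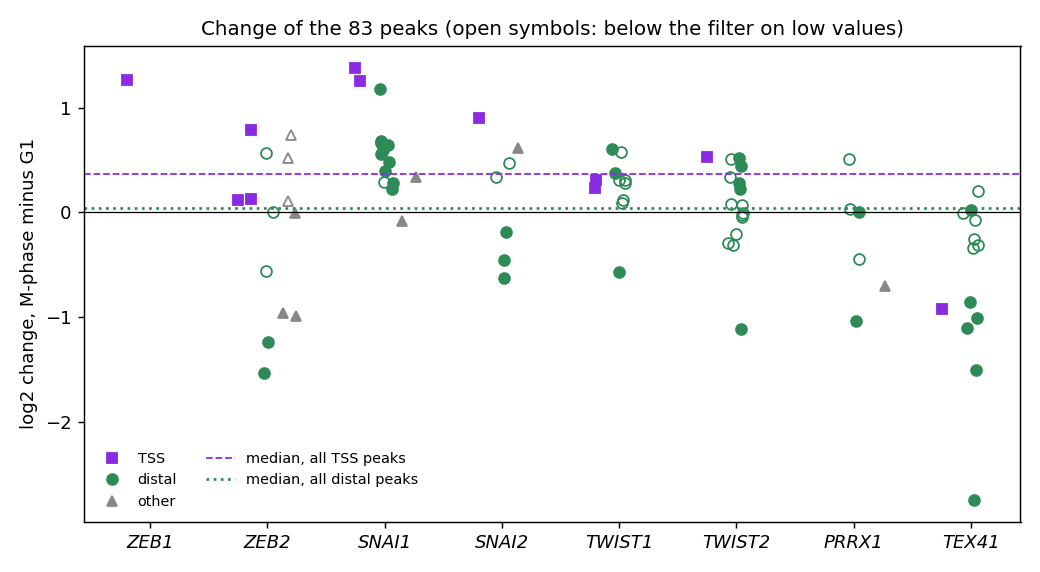
Log2 change between M-phase and G1 (vertical axis) of all 83 peaks by gene and peak class, with open symbols for peaks below the filter on low values and lines for the medians of all TSS (dashed) and all distal (dotted) peaks in the table. TSS peaks of ZEB1, SNAI1 and SNAI2 lie above the dashed line, whereas the ZEB2 and TWIST1 promoters lie below it, and TEX41 and ZEB2 hold the lowest distal peaks.

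Outside TEX41, the 50 distal members had a median log2 change of 0.25 and 25 were tested, of which 6 were higher (24.0%) and 4 lower (16%). The background was 5.88% and 15.9%. All but 1 of these rises lay in the SNAI1 window, and the falls lay in ZEB2, TWIST2 and PRRX1. The count of higher members depended on single libraries. Over all members it was 12, and it was 5 without G1 replicate 2, without M-phase replicate 1 or without M-phase replicate 2, and also 5 with equal totals. Of the 7 falls outside TEX41, 7 were kept with equal totals and with the trended loess normalization, and 5 without M-phase replicate 2. In all 12 alternatives 4 rises (the ZEB1, SNAI1 and RNF114 promoters and the strongest SNAI1 distal peak) and 4 falls were kept. Of these falls, the exonic ZEB2 peak and the low intronic PRRX1 peak passed the filter through G1 alone.

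**Figure D5:**
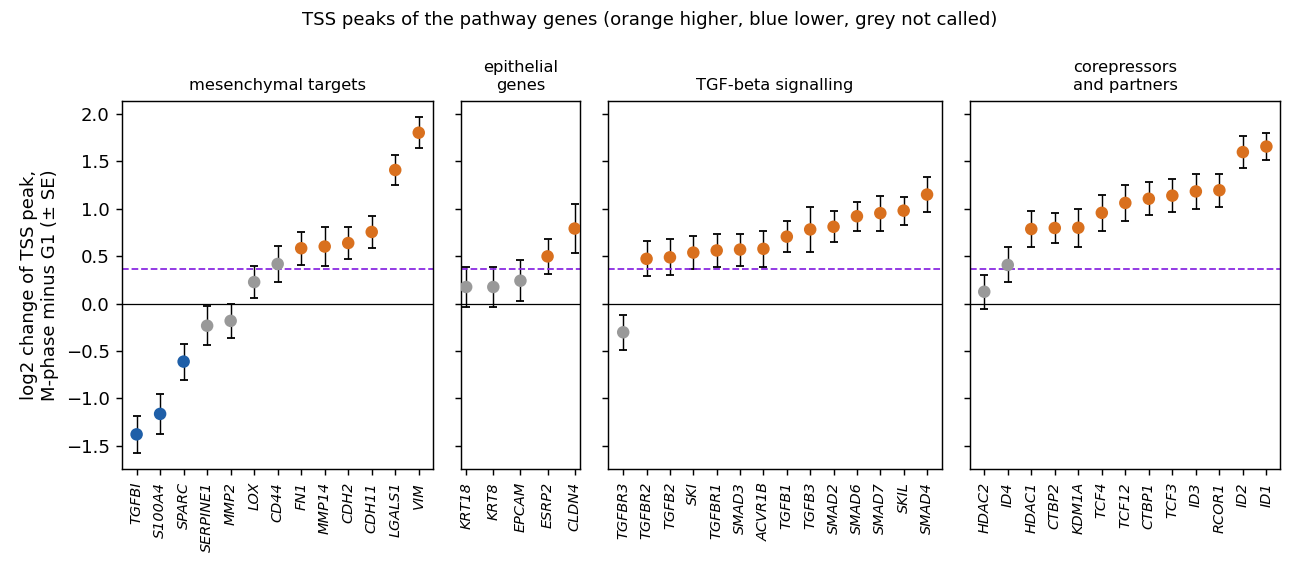
Log2 change of the highest TSS peak of each pathway gene that had one (vertical axis, with SE from limma), grouped by list and coloured by call, where the dashed line is the median of all TSS peaks. The TGF-beta and corepressor lists lie mostly above 0, and the mesenchymal targets run from -1.38 at TGFBI to 1.80 at VIM.

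The genes that these factors act on or with were taken as lists by known function, but with earlier results of these data known. A shared rise must be read beside the 43.2% of TSS peaks that were higher. Each gene is given by its TSS peak of highest mean. Calls of the list genes were not checked under the alternative normalizations. There the median of all TSS peaks moved from 0.37 to 0.058 with equal totals and to 0.048 with trended loess. Of 13 mesenchymal targets, all with a TSS peak, 6 were higher and 3 lower. VIM, which encodes the intermediate filament vimentin, rose from 272 ± 55.3 scaled reads in G1 to 961 ± 112 in M-phase (SD, n = 3), a log2 change of 1.80 (limma adjusted p = 1.44e-15). CDH2, which encodes N-cadherin, rose by 0.64 on the log2 scale (limma adjusted p = 0.00167). TGFBI, an extracellular matrix protein gene, fell from 341 ± 102 to 124 ± 22.0, a log2 change of -1.38 (limma adjusted p = 1.08e-08), and S100A4, a calcium-binding protein gene, had a log2 change of -1.16 (limma adjusted p = 6.33e-06).

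Epithelial genes, the targets of repression, mostly had no TSS peak. A peak was found for 5 of 15, with CDH1, ESRP1, GRHL2 and OVOL1 among those without, and KRT8 and KRT18 share a single peak. Of these 5 genes 2 were higher and none lower, and the largest log2 change was 0.79, at the claudin gene CLDN4 (27.1 ± 6.35 to 53.8 ± 16.5, limma adjusted p = 0.0152).

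The TGF-beta list had a TSS peak at all 14 genes, and 13 were higher and none lower. SMAD4, the common mediator of the pathway, had the largest rise, from 170 ± 39.7 to 382 ± 16.5, a log2 change of 1.15 (limma adjusted p = 2.67e-07). The exception, the coreceptor gene TGFBR3, had a log2 change of -0.30 (limma adjusted p = 0.228). In the corepressors and partners 11 of 13 were higher and none lower. ID1, an inhibitor of the E proteins that pair with TWIST, rose from 474 ± 32.7 to 1512 ± 64.5, a log2 change of 1.66 (limma adjusted p = 5.35e-16). The E protein genes TCF3, TCF4 and TCF12 rose by 1.14, 0.96 and 1.06 on the log2 scale, and CTBP1, the corepressor bound by ZEB proteins, by 1.11 (limma adjusted p = 2.15e-07). TCF4 had 6 TSS peaks, and the value is that of the highest alone. HDAC2 had a log2 change of 0.12 (limma adjusted p = 0.664). Medians of the lists were 0.42 for the mesenchymal targets, 0.24 for epithelial genes, 0.64 for TGF-beta signalling and 1.06 for corepressors and partners, beside 0.37 over all TSS peaks.

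As a description of the chosen TEX41 peak, its log2 values over the 6 libraries were set beside those of 11245 TSS peaks of protein-coding genes with a mean of at least 50. The nearest were GCA on chromosome 2, with Pearson's r of 0.992, IDS on the X chromosome with 0.989 and GAS7 on chromosome 17 with 0.986. GCA, the grancalcin gene, had 120.3, 114.1 and 143 scaled reads in G1 and 69.6, 77.9 and 58.7 in M-phase. All of these peaks share the libraries and their totals, and all had lower means in M-phase.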

How the data were processed

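ATAC-seq was done on T98G cells, 3 G1 and 3 M-phase replicates. Per the study's methods, the authors trimmed adapters (cutadapt), removed 1 base from the 3′ end of each read, mapped to hg19 with Bowtie allowing up to 3 locations, removed mitochondrial reads, called broad peaks on merged replicates (MACS2) and merged the peaks of both phases. The deposited signal is the read count per peak scaled by the authors to the smallest library and rounded to 0.1, so it is not a raw count and no count model was fitted. How runs from different sequencers were joined is not given in the sources used here. The M-phase columns name a replicate but not a run. Columns with the authors' log2 change and its SD were not used. Every per-library column was used (0 left out).

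TSSs and gene bodies came from GENCODE release 44 lifted to GRCh37. A peak was a TSS peak if it overlapped any annotated start, distal if it was over 2 kb from all starts and outside CpG islands computed from the genome, and otherwise other. Peaks with a value of at least 10 in 3 libraries of median size and a total of at least 15 were tested with limma 3.58.1 in R 4.3.3 (mean-variance trend, pseudocount 8, Benjamini-Hochberg threshold 0.05), after the step was tested on simulated data. Summed counts were compared by exact permutation. The members, gene lists and motifs were chosen with earlier results of these data known. Named were the TSS peaks of each member gene, its distal peaks of largest fall and rise (mean at least 20) and of highest mean, the chosen TEX41 peak, the largest fall and rise of each pathway list (mean at least 50) and the 3 TSS peaks most like the TEX41 peak. Other peaks and genes were named after their values were seen. Totals of scaled counts in peaks ranged from 4191845 to 6000423 per library, and at low peaks counting error limits the precision. A promoter sequence and a marker gene are not reported here.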

Additional observations from a re-analysis of the deposited data

How the results depend on the processing

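The count of lower members was 13, of which 6 are TEX41 peaks from the gene chosen for such a decrease, and 11 to 15 under the alternatives. Of the 7 outside TEX41, 5 to 7 were kept in each alternative fit. The count of higher members was 12, and it was 5 with libraries set to equal totals (with 15 lower), 4 within gene bodies without the extension, and 5 to 11 when 1 replicate was left out. With the trended loess normalization it was 8, with 15 lower. The median log2 change of distal members, 0.07, was -0.084 with equal totals, 0.0022 with trended loess, 0.15 with a pseudocount of 1, -0.044 within gene bodies, 0.22 over tested peaks only, and 0.03 to 0.14 with 1 replicate left out. The median of the TSS members, 0.53, was 0.19 with equal totals and 0.30 with trended loess, against 0.48 to 0.60 with 1 replicate left out. For all TSS peaks the median of 0.37 was 0.058 with equal totals and 0.048 with trended loess. Equal totals moved the median of all peaks from 0.07 to -0.12, so part of each shift is the construction of that scaling. Directions turned with trended loess for the TSS peaks of TWIST2 (-0.012), TWIST1 (-0.34) and ZEB2 (-0.24), with equal totals for those of TWIST1 (-0.037) and ZEB2 (-0.21), and for ZEB2 also without G1 replicate 1 (-0.011). The named peaks near 0, TEX41 before the gene (0.025) and the highest distal PRRX1 peak (0.0017), turned in 6 and 5 alternatives, down to -0.30 and -0.31. The cause was not tested. The chosen TEX41 peak stayed lower in every alternative.

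No pairing by replicate number was seen in these values, which cannot show whether same-numbered libraries were made together. The correlations of same-numbered deviations from the group means were 0.0059, -0.0101 and 0.0284, and 3 of 6 libraries correlated best with their own number. With a replicate block 13 members were lower and 12 higher, as without it. The planned count model on recovered reads was not run, because in 3 columns the rounded values did not meet the tolerance set for calling them whole reads. Depth limits what can be said of low peaks: of the 83 members, 49 passed the filter and 34 did not.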
